A study of Homo sapiens with 12 samples.

Results

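The 161 genes described here carried at least 1 peak in both METTL16 and both eIF3b RNA immunoprecipitation (RIP) peak lists and no peak in either eIF3a list. They were selected on the gene names of the 6 deposited lists, and they made up 1.49% of the 10830 genes named in any list. RIP followed by sequencing pulls a protein down with an antibody and compares the recovered RNA with the input RNA kept before the pull-down. The cells were HepG2 cells, which are an established line of human liver cancer, infected to give stable lines that overexpress a 3XFlag-tagged protein. METTL16 came from a pmiRNA1 vector, and eIF3a and eIF3b came from a pSIN4 vector. All lines were exposed to ultraviolet light before lysis, so RNA in contact with protein was cross-linked, and no group was treated with a drug. Per the labels, METTL16 and eIF3b were pulled down through the Flag tag and eIF3a with an antibody to eIF3a itself. The study's methods also list an eIF3a antibody beside the Flag antibody for RIP, without assigning them to samples. The names of the deposited lists mark all 6 as Flag, so the antibody of the eIF3a RIP is not fully settled. If it differed, as the labels state, absence from the eIF3a lists and the change of antibody cannot be told apart. Each protein had 2 replicate RIPs, and a further 6 samples were inputs. Expression levels in the inputs were not analysed here, so a gene with little RNA and a gene with little enrichment cannot be told apart either.

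METTL16 is a methyltransferase that places N6-methyladenosine on U6 small nuclear RNA and on hairpins of the MAT2A transcript, and it has also been described as a cytosolic factor in translation. eIF3a and eIF3b are both core subunits of eukaryotic initiation factor 3, the large complex that docks on the small ribosomal subunit and helps to recruit mRNA. Both subunits sit in the same complex, and the genes below were listed for one of them, together with METTL16, and not for the other.

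The genes were a small part of those shared by METTL16 and eIF3b. Of 3945 genes in both METTL16 and both eIF3b lists, 2730 were also in both eIF3a lists, 1054 were in exactly 1 eIF3a list and 161 (4.08%) were in neither. Of the 1054 genes, 1009 were in eIF3a replicate 1 only and 45 in eIF3a replicate 2 only. The eIF3a lists named 8166 and 5226 genes, against 5829 and 6337 for METTL16 and 8063 and 7570 for eIF3b. The opposite pattern, both METTL16 and both eIF3a lists without either eIF3b list, held 8 of 2820 genes (0.284%). A further 446 of 3985 genes (11.2%) were in both eIF3a and both eIF3b lists without METTL16. The counts follow from the rule, and the part of list length in them was not tested. Without eIF3a replicate 1 the rule gave 1170 genes, and without eIF3b replicate 2 it gave 329. The 161 names cover overlapping loci in 2 cases, since the peaks of SCHIP1 and the readthrough gene IQCJ-SCHIP1 shared 713 bases and those of PRR5 and PRR5-ARHGAP8 shared 305 bases.

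To show the RNA that both proteins recovered, the coding sequence under the peaks is printed for 5 genes. They come from the first 6, in order of their worst rank by p-value, of 33 genes that passed a set of limits. At least 30 bases of 1 coding exon had to lie under a peak in all 4 lists. Further limits applied, among them 300 bases for the longest sequence, so 33 is not the count for the 30-base limit alone. Genes ranked above ADRM1 but not printed include RSAD1 and LSM4, each with 180 bases under a peak in all 4 lists. Capitals mark the bases under a peak in all 4 lists and lower case marks neighbouring coding bases under a peak in at least 1 list. The sequences are from GRCh38, are written 5′ to 3′ on the transcript strand and lie wholly in coding exons of the canonical GENCODE transcript. FAM207A lies at chr21:44967034-44967181 on the plus strand (exon 4 of 6) and STARD3 at chr17:39659461-39659553 on the plus strand (exon 9 of 15). The strongest peak of STARD3 lay in the 3′ UTR in all 4 lists, so its rank belongs to that peak and not to the printed stretch. CPOX lies at chr3:98592971-98593270 on the minus strand (exon 1 of 7) and BAX at chr19:48955687-48955775 on the plus strand (exon 3 of 6). ADRM1 lies at chr20:62306648-62306734 on the plus strand (exon 5 of 10).
FAM207A: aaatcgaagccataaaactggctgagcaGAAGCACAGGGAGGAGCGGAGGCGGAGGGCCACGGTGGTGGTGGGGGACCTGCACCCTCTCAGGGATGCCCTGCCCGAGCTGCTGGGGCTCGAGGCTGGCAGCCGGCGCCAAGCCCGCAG
STARD3: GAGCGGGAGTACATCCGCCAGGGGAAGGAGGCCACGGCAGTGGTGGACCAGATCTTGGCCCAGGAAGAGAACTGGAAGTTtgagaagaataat
CPOX: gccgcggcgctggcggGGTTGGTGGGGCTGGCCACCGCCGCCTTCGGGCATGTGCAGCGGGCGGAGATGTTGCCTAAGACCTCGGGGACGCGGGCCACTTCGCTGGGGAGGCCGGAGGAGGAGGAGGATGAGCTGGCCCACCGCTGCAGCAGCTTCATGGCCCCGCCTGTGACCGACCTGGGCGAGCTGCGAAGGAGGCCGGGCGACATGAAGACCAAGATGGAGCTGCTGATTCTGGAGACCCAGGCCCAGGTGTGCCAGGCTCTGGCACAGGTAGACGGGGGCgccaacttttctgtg
BAX: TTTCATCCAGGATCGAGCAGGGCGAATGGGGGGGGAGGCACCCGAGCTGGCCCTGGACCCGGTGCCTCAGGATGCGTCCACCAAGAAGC
ADRM1: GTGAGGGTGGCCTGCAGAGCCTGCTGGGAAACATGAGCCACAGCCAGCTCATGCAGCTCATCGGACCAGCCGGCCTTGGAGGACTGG
The capitalised stretches were 80 to 269 bases long, and their GC content ran from 61.25% in STARD3 to 74.2% in FAM207A. No base of these stretches, nor of any other peak of the 161 genes in the 4 lists, was covered by an eIF3a peak under any gene name (0 of 226, 257, 278 and 207 peaks in METTL16 replicates 1 and 2 and eIF3b replicates 1 and 2). Of the 161 names, 6 were older symbols, among them FAM207A, now SLX9, and none was listed for eIF3a under another symbol.

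The peaks of these genes were fewer, narrower and weaker than those of genes in all 6 lists, which is a description, since the rule rests on the same peak calls. Fold enrichment is the authors' ratio of RIP over input in a peak. The 161 genes had a mean of 1.40 and 1.60 peaks per gene for METTL16 and 1.73 and 1.29 for eIF3b, whereas genes in all 6 lists had 3.13, 2.81, 3.93 and 3.91. A single peak was listed for 65.8%, 57.8%, 50.3% and 75.8% of the 161 genes in the same order, and 42 genes had 1 peak in each of the 4 lists. The median fold enrichment of their peaks was 2.50 and 2.86 for METTL16 and 2.3 and 2.10 for eIF3b, against 3.25, 3.49, 3.25 and 2.94. Every one of these medians was below that of the genes in all 6 lists. Their median peak width was 163, 181, 207 and 121 bases, against 209, 209, 241 and 211 bases. Ranked by the p-value of its strongest peak, the median gene stood at the 58.2nd and 46.2nd percentile for METTL16 and at the 52.0th and 70.7th for eIF3b, where 0 is the strongest. Genes in all 6 lists stood at 33.4, 37.4, 22.1 and 24.8. None of the 161 genes was among the first 1000 genes in all 4 lists, and 13 had a strongest peak of at least 4-fold in all 4. Counts over all 4 lists, here and for single peaks above, were not made for other genes.

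**Figure D1:**
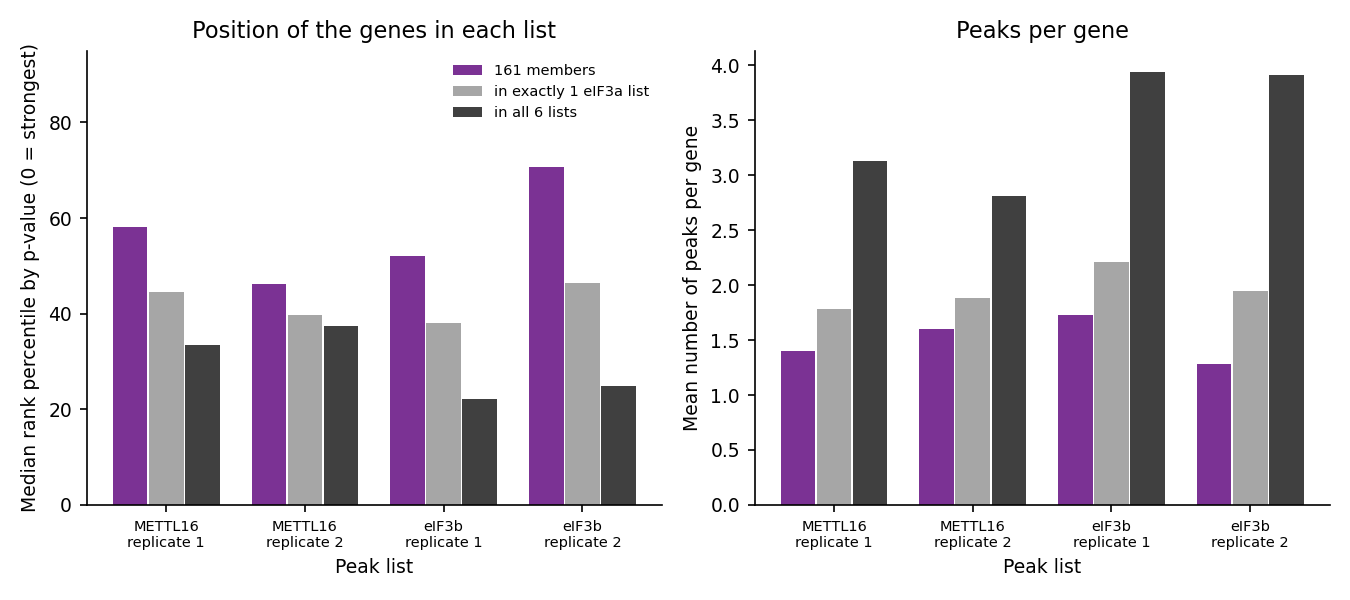
Left, median rank percentile by the p-value of each gene's strongest peak (0 is the strongest); right, mean number of peaks per gene. Bars show the 161 genes, genes in exactly 1 eIF3a list and genes in all 6 lists in each METTL16 and eIF3b list; the 161 genes rank lowest in every list and have 1.29 to 1.73 peaks per gene.

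At the edge of the rule, the 5 genes just inside had a weakest peak with a p-value of 0.0037 to 0.0051. They were FAM8A1 (eIF3b replicate 2, 1.53-fold), RAB18, a small GTPase of lipid droplets and the endoplasmic reticulum (METTL16 replicate 1, 1.54-fold), DNAJC30 (eIF3b replicate 1, 6.86-fold), BABAM1 (eIF3b replicate 2, 1.52-fold) and ALKBH4 (eIF3b replicate 2, 2.69-fold). The 5 genes just outside were kept out by 1 eIF3a peak with a p-value of 0.0034 to 0.0047. They were TOR3A (1.92-fold), ABHD12 (1.88-fold), SNURF (1.18-fold) and TOM1 (1.38-fold) in eIF3a replicate 1 and STK11IP (2.10-fold) in eIF3a replicate 2. The p-values on the 2 sides of the rule overlapped. The folds ran from 1.52 to 6.86 inside, or to 2.69 without DNAJC30, and from 1.18 to 2.10 outside. The inside folds come from METTL16 and eIF3b lists and the outside folds from eIF3a lists, so the 2 ranges cannot be compared directly.

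Several members belong to the translation machinery. EIF1 is the small initiation factor that keeps the scanning ribosome from starting at the wrong codon. Its strongest peak was enriched 3.15-fold and 3.4-fold in METTL16 replicates 1 and 2 and 1.49-fold and 1.43-fold in eIF3b replicates 1 and 2. Both METTL16 values were above both eIF3b values, and the peaks shared 119 bases that started at chr17:41688875, the same first base in all 4 lists. EIF3D, a subunit of eIF3 that can bind the mRNA cap, had 1.91-fold, 1.75-fold, 1.55-fold and 1.39-fold in the same order, again with both METTL16 values higher. BTF3, part of the complex on nascent chains, gave 3.41-fold, 3.23-fold, 5.28-fold and 1.11-fold, so the 2 eIF3b replicates lay on either side of the METTL16 pair. EEF1A1, the elongation factor that brings aminoacyl-tRNA to the ribosome, gave 1.15-fold, 1.84-fold, 1.08-fold and 2.42-fold. It was under 2-fold in 3 of the 4 lists and no base was shared by all 4, although in METTL16 replicate 2 it ranked 11th by p-value. EEF1A1 has many processed copies in the genome, and how reads that match several places were counted is not given in the sources used here. TARS, threonyl-tRNA synthetase, and RPS6KB2 and AKT1S1, a kinase and an inhibitor of the mTOR pathway, completed the group, whose 7 genes had enrichments of 1.08 to 5.28 with a median of 1.88.

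A second group served translation inside mitochondria. AURKAIP1, a protein of the small mitochondrial ribosomal subunit, gave 1.72-fold and 1.95-fold for METTL16 and 1.82-fold and 1.55-fold for eIF3b. MRPS34, of the same subunit, gave 3.67-fold, 2.38-fold, 2.04-fold and 2.16-fold, and MRPL12, of the large subunit, 1.38-fold, 2.28-fold, 1.24-fold and 1.36-fold. The METTL16 and eIF3b values overlapped for AURKAIP1 and did not overlap for MRPS34 and MRPL12. MRM3, which methylates mitochondrial ribosomal RNA, and CARS2, the mitochondrial cysteinyl-tRNA synthetase, were the other members. The strongest peak was coding in all 4 lists in 4 of the 5 genes, against 81 of all 161. The role groups are small and were chosen after the values were seen, so counts within them are descriptions.

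Mitochondrial carbon metabolism and respiration held 9 of the genes described. PCK2 makes phosphoenolpyruvate in mitochondria, IDH2 and DLST are enzymes or subunits around the citrate cycle, GLDC and ALDH2 break down glycine and aldehydes, and CRAT handles acetyl-carnitine. PCK2 gave 1.48-fold and 4.38-fold for METTL16 and 1.44-fold and 1.29-fold for eIF3b, so METTL16 replicate 2 alone was high. There its strongest peak covered 1130 exon bases, whereas it covered 180, 209 and 120 bases in METTL16 replicate 1 and eIF3b replicates 1 and 2. IDH2 had the same form, with 1.51-fold, 3.02-fold, 1.54-fold and 1.28-fold. GLDC was far stronger, at 12.3-fold, 1.92-fold, 7.4-fold and 7.59-fold, with METTL16 replicate 2 the low value. ATP5D, now ATP5F1D, is part of ATP synthase and gave 2.03-fold, 3.73-fold, 1.69-fold and 1.66-fold. Both METTL16 values were above both eIF3b values in 5 of the 9 genes, against 58 of all 161. The reverse was seen in none of the 9, against 11 of all 161.

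Handling of haem, iron-sulphur clusters and copper was the role of 7 further genes. ALAS1 and CPOX are early and late enzymes of haem synthesis, HMOX2 degrades haem, CIAPIN1 and NUBP2 act in cytosolic iron-sulphur cluster assembly, SLC31A1 imports copper and CCS hands copper to superoxide dismutase. CPOX gave 3.74-fold and 4.63-fold for METTL16 and 5.52-fold and 3.12-fold for eIF3b, and its strongest peaks all overlapped the stretch printed above, with 269 bases in common. CIAPIN1 gave 3.72-fold and 5.86-fold against 1.71-fold and 1.72-fold, and CCS gave 2.86-fold and 6.77-fold against 2.06-fold and 2.4-fold. The METTL16 values did not overlap the eIF3b values in either. The strongest peak was coding in all 4 lists in 6 of the 7 genes, against 81 of all 161. SLC31A1, with 2.40-fold, 2.76-fold, 2.22-fold and 1.78-fold, had it in the 3′ UTR in all 4.

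The cytosolic enzymes of sugar, lipid and cofactor metabolism were QPRT (NAD synthesis), RPIA (pentose phosphate pathway), MVD (cholesterol synthesis), ISYNA1 (inositol), PANK1 (coenzyme A) and CHKA (phosphatidylcholine). The strongest peak was coding in all 4 lists in none of these 6, against 81 of all 161. In ISYNA1 and CHKA it was coding in 3 of the 4 lists. QPRT gave 3-fold and 1.86-fold for METTL16 and 2.06-fold and 2.18-fold for eIF3b, with the strongest peak in the 3′ UTR in METTL16 replicate 1 and eIF3b replicate 2 and in the coding sequence in the other two lists. PANK1 had it in the 5′ UTR in all 4 lists, at 15.9-fold, 2.31-fold, 13-fold and 2.2-fold. Replicates of one protein thus differed more than the proteins did for PANK1.

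In the proteasome and ubiquitin group, ADRM1 is a ubiquitin receptor of the proteasome, PSMC5 an ATPase of its base and PSME1 a subunit of the PA28 activator. PSME1 gave 1.25-fold, 1.17-fold, 1.43-fold and 1.37-fold and PSMC5 1.51-fold, 1.45-fold, 1.72-fold and 1.52-fold. In these 2 genes both eIF3b values were above both METTL16 values, by small margins. UBE2M, the enzyme that conjugates NEDD8 to cullins, gave 6.92-fold, 6.85-fold, 9.57-fold and 5.21-fold. It had the longest stretch under peaks of all 4 lists, 329 bases. TRIM47, a ubiquitin ligase, gave 3.91-fold, 10-fold, 4.9-fold and 2.54-fold, and KLHDC3, a substrate receptor of a cullin ligase, 3.81-fold, 3.38-fold, 2.94-fold and 2.03-fold with every strongest peak in the 3′ UTR. The 12 genes of this group had enrichments of 1.17 to 10 with a median of 2.31.

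Genes of cell death and DNA repair included BAX, which permeabilises the outer mitochondrial membrane, and PARP1, which senses DNA breaks. BAX gave 1.8-fold and 2.06-fold for METTL16 and 4.35-fold and 1.4-fold for eIF3b, and its peaks shared 208 bases. The eIF3b replicates enclosed the METTL16 pair. PARP1 gave 2.77-fold and 2.32-fold against 2.19-fold and 2.15-fold, with METTL16 higher throughout. FADD, the adaptor of death receptors, gave 5.3-fold and 5.16-fold against 3.68-fold and 1.78-fold. WEE1, the kinase that holds CDK1 inactive, gave 3.38-fold, 10.1-fold, 3.78-fold and 1.78-fold, so METTL16 replicate 2 was again the high list. The strongest peak was coding in all 4 lists in 6 of these 8 genes, against 81 of all 161.

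Chromatin proteins and transcription factors held the highest single enrichments among the groups. HIST3H2A, now H2AC25, encodes a histone H2A in a single exon and gave 21.2-fold and 26.2-fold for METTL16 and 20.6-fold and 23.5-fold for eIF3b. Its peaks shared 146 of 234 bases, though reads of near-identical histone genes may have been split. Some of these values were tied with other genes. In METTL16 replicate 2 the strongest peaks of HIST3H2A and LOXL2 carried the same fold (26.2) and p-value (1.2e-05), and in eIF3b replicate 1 those of HIST3H2A and NUAK1 did (20.6 and 2.24e-05). BRD7, a subunit of a SWI/SNF remodelling complex, gave 5.55-fold and 4.03-fold against 2.21-fold and 2.02-fold, and BMI1, a Polycomb protein, 4.64-fold and 4.57-fold against 1.81-fold and 2.6-fold. CBX8, also of Polycomb, ran the other way, with 2.85-fold and 3.79-fold against 4.96-fold and 4.01-fold. MCRS1, found in the INO80 and NSL complexes, overlapped, with 2.04-fold, 2.45-fold, 2.7-fold and 2.35-fold. Among transcription factors, NR1D1 and DBP act in the circadian clock, NR1H2 is the oxysterol receptor LXR-beta, MYCL is a MYC relative, MAFF a small MAF protein, HES4 a NOTCH-type repressor and TAF10 a TFIID subunit. DBP gave 14.6-fold, 31-fold, 6.86-fold and 14.7-fold and MYCL 5.3-fold, 21.4-fold, 14.4-fold and 8.81-fold. The 7 transcription factors had a median enrichment of 4.85, against medians between 1.88 and 3.025 in the other groups. The groups were chosen after the values were seen, so this order is a description and was not tested. The zinc finger genes ZNF48 and ZNF830 were placed in no group, and their folds ran from 2.28 to 3.95 and from 2.45 to 3.56. The MYCL value of 21.4-fold in METTL16 replicate 2 was tied with BASP1 (p-value 0.000117 for both), and in eIF3b replicate 2 the strongest peaks of DBP, NUAK1, LOXL2 and C6orf132 all had 14.7-fold and a p-value of 0.000813. The lists give no read counts, so how many reads stand behind these folds is unknown.

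RNA-processing factors and interferon-induced proteins closed the list of roles. LSM4, of the ring that binds U6 small nuclear RNA and decapped mRNA, gave 1.79-fold and 2.86-fold for METTL16 and 2.02-fold and 1.5-fold for eIF3b. POP7, a subunit of RNase P, had all strongest peaks in the 5′ UTR, at 2.56-fold and 2.35-fold against 1.78-fold and 1.77-fold. BST2 (tetherin) gave 2.06-fold and 2.74-fold against 1.94-fold and 1.75-fold, and ISG15, a ubiquitin-like modifier, 1.97-fold and 2.95-fold against 1.43-fold and 1.71-fold. METTL16 was higher throughout in POP7, BST2 and ISG15, and LSM4 overlapped. Outside these roles, the genes with the best worst rank by p-value over the 4 lists were led by FAM207A, a ribosome biogenesis factor. Its worst rank was 2797, in eIF3b replicate 2, and it gave 2.35-fold, 2.57-fold, 2.59-fold and 2.43-fold. STARD3, which moves cholesterol at late endosomes, gave 3.83-fold, 12.7-fold, 2.75-fold and 2.49-fold, all in the 3′ UTR. DEXI gave 2.9-fold, 3.6-fold, 4.69-fold and 3.01-fold and the nucleotidase NT5C3B 1.62-fold, 4.2-fold, 2.3-fold and 1.79-fold. FAM207A had the narrowest range of these, and METTL16 replicate 2 was the high list for STARD3 and NT5C3B.

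**Figure D2:**
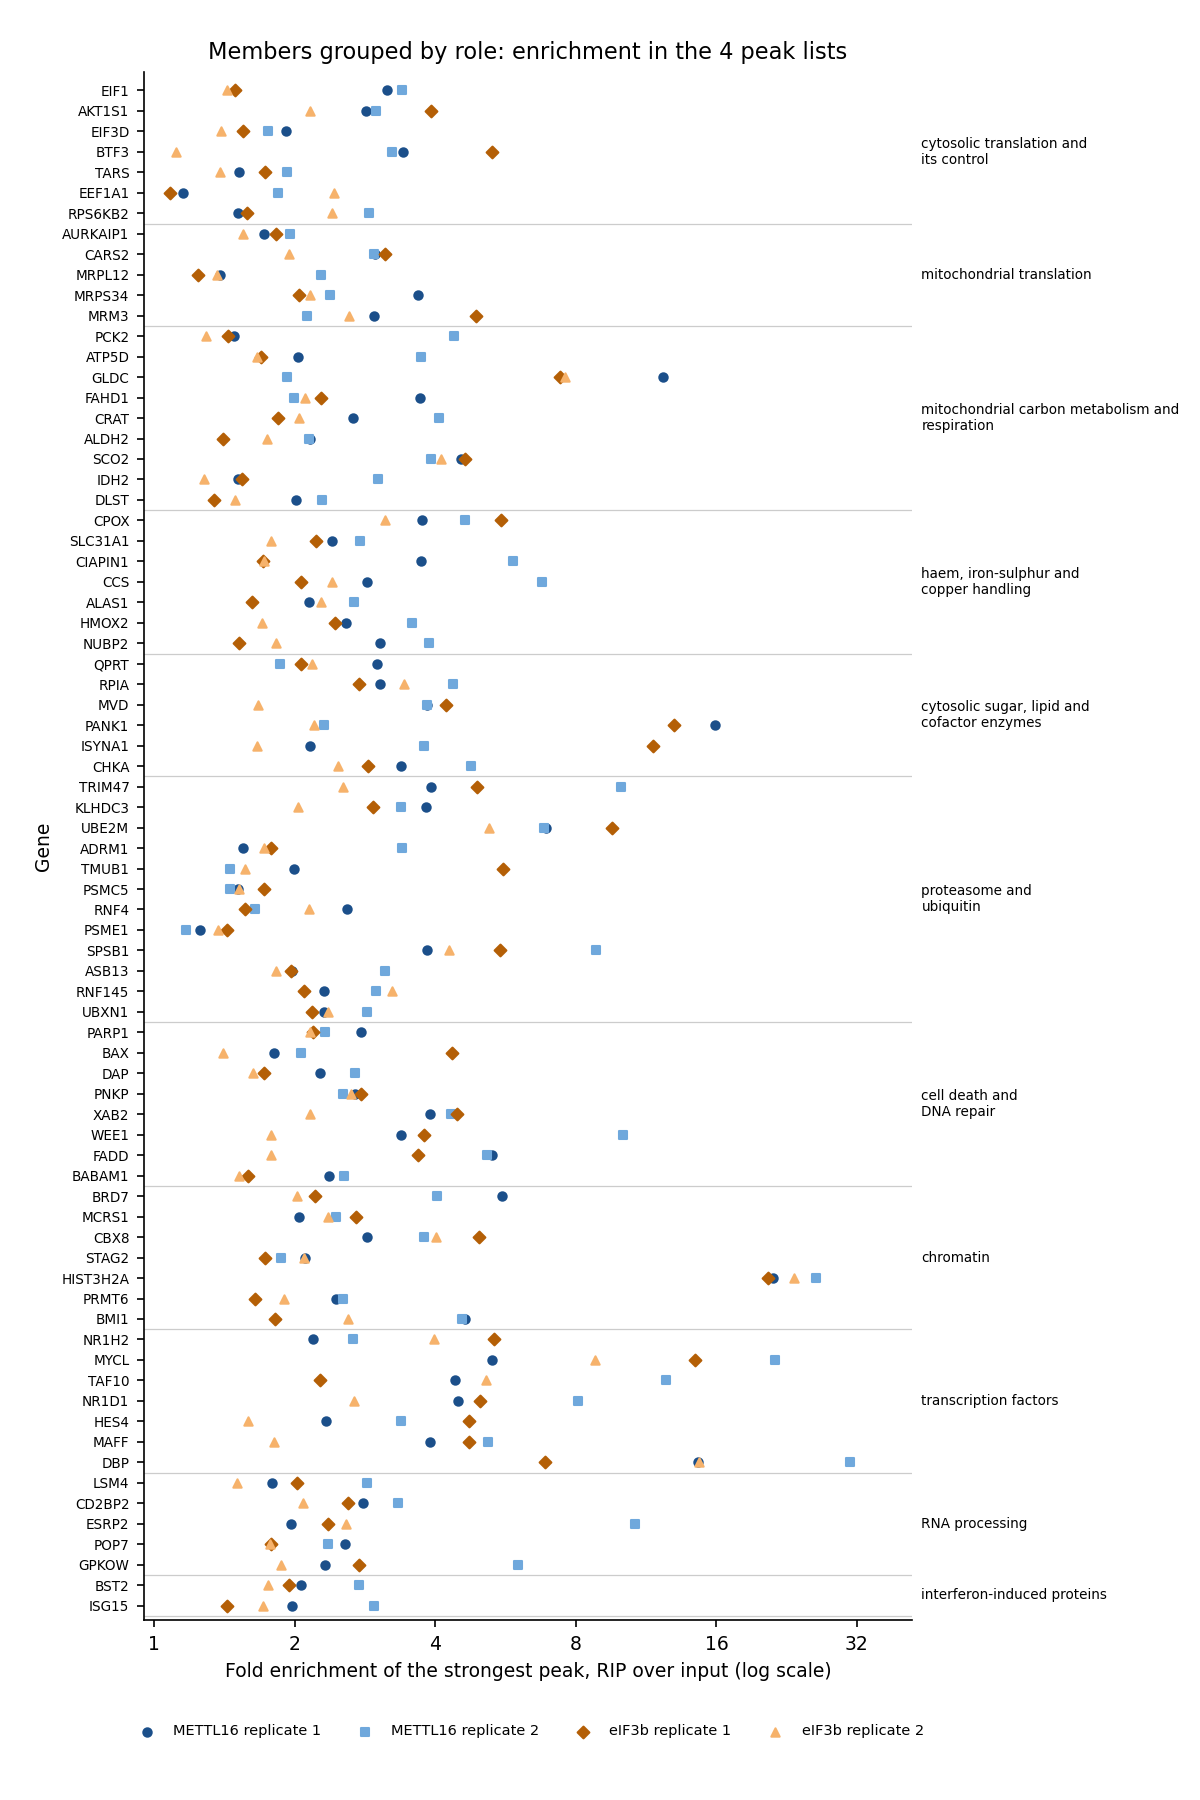
Fold enrichment of the strongest peak (horizontal log axis, RIP over input) of 75 genes grouped by role, with 1 point for each METTL16 and eIF3b list. Most points lie under 4-fold, and HIST3H2A lies between 20.6-fold and 26.2-fold in all 4 lists, with 2 of its values tied with other genes.

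Read over all 161 genes, the METTL16 folds tended to be the higher ones. The fold of the strongest peak was higher in both METTL16 lists than in both eIF3b lists in 58 genes (36.0%), against 19% of the 3945 genes shared by the 4 lists. It was higher in both eIF3b lists in 11 genes (6.83%), against 17.2%. METTL16 replicate 2 held the highest of the 4 values in 84 genes (52.2%), against 41.7% of genes in exactly 1 eIF3a list and 26.4% of genes in all 6 lists. eIF3b replicate 2 held the lowest in 85 genes (52.8%), against 47.3% and 36.6%. The median of METTL16 over eIF3b on the log2 scale was 0.37 in the 161 genes, 0.20 in genes of exactly 1 eIF3a list and -0.06 in genes of all 6 lists. Between replicates in the 161 genes the median log2 ratio of replicate 2 over replicate 1 was 0.31 for METTL16 and -0.20 for eIF3b. Folds come from the calls that the rule used and each list had its own scale, so these shares were not tested.

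Where the peaks lay in the transcript was not used by the rule directly, but the lists it compares differed in this. A peak was assigned to the coding sequence, the 5′ UTR or the 3′ UTR by its middle base. In METTL16 replicates 1 and 2, 71.0% and 76.9% of the peaks of the 161 genes were coding, and in eIF3b replicates 1 and 2, 68.6% and 64.2%. Genes in all 6 lists had 58.4%, 63.6%, 57.8% and 55.6%. The coding share was thus higher by 11.3 percentage points ± 2.09 (SD, n = 4 lists), with the same sign in 4 of 4 lists, and by 5.92 points when genes were chosen without eIF3a replicate 2. The 3′ UTR share was 18.3%, 14.1%, 20.3% and 24.0%, against 35.8%, 30.04%, 35.7% and 39.0%, a difference of -16.0 points ± 1.11 (SD, n = 4 lists). The 5′ UTR share was 10.7%, 9.02%, 11.1% and 11.8%, against 5.75%, 6.37%, 6.54% and 5.34%, a difference of 4.64 points ± 1.56 (SD, n = 4 lists). Each of these differences had a two-sided exact sign-flip permutation p = 0.125 (n = 4 lists), the smallest that 4 lists allow, so none could reach 0.05. The lists hold the same genes and are therefore not independent measurements. Over all genes, the 3′ UTR share was 38.2% and 38.6% in the eIF3a lists, against 24.1% to 36.2% in the METTL16 and eIF3b lists. The 5′ UTR share was 5.01% and 3.34%, against 6.12% to 8.55%. The coding share was 56.8% and 58.1%, against 57.7% to 68.7%, so it overlapped. The part of this general difference between lists in the region results was not tested. The transcripts themselves also differed in make-up. In the 161 genes the median transcript had 2252 bases, the coding sequence 1116 and the 3′ UTR 716. In genes of all 6 lists these medians were 4486.5, 1893 and 1827 bases. The part of these lengths in the region shares was not tested.

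Much of this pattern was shared with genes missing from only 1 eIF3a list. Those 1054 genes had coding shares of 69.2%, 74.3%, 66.3% and 62.9%, which were 1.99 points below the 161 genes on average, and 3′ UTR shares of 21.3%, 16.6%, 23.3% and 28.5%. Their 5′ UTR share in METTL16 replicate 2, 9.16%, was not below that of the 161 genes. Within the 161 genes, METTL16 peaks were coding in 73.9% ± 4.16 and eIF3b peaks in 66.4% ± 3.12 (SD, n = 2 lists each). The difference of 7.50 points was not significant (exact permutation p = 0.333, n = 2 against 2, the smallest that design allows) and reversed to -5.48 points among peaks of at least 4-fold. The strongest peak was coding in all 4 lists in 81 genes, in the 3′ UTR in 12 and in the 5′ UTR in 5, while its region differed between lists in 62.

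**Figure D3:**
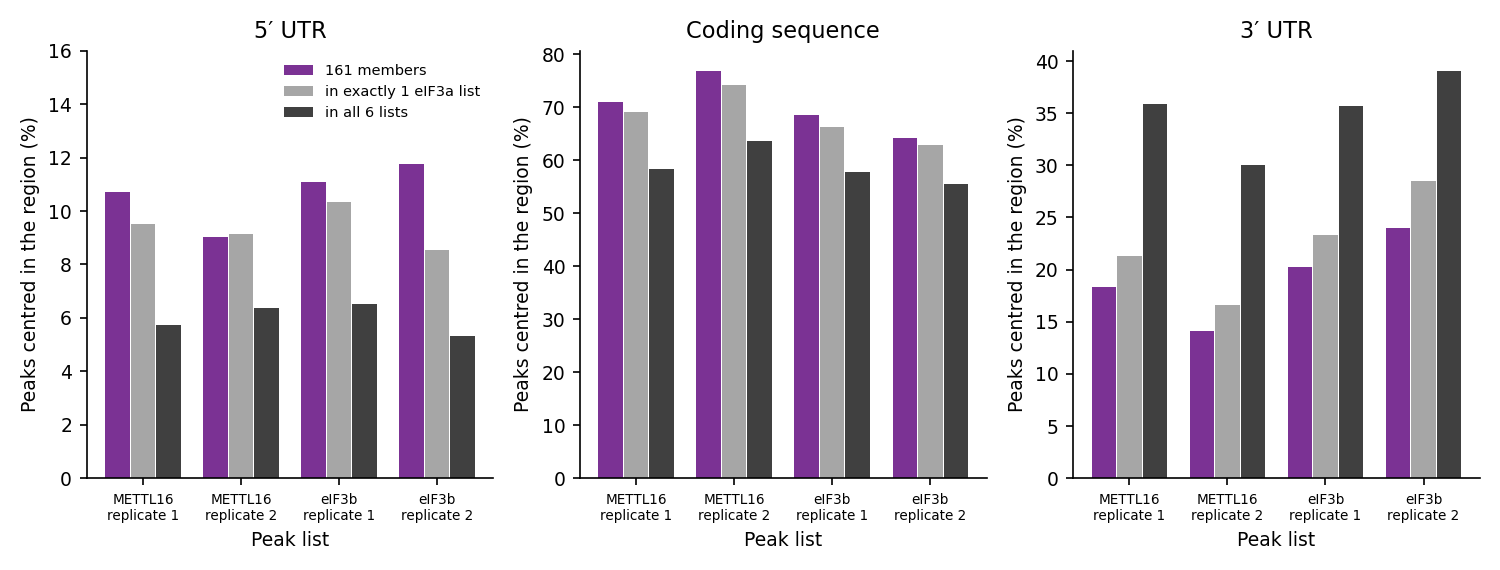
Share of peaks centred in the 5′ UTR, the coding sequence and the 3′ UTR (vertical axes from 0, different scales) in each METTL16 and eIF3b list. The 161 genes have 14.1% to 24.0% of peaks in the 3′ UTR, against 30.04% to 39.0% in genes of all 6 lists, and genes in exactly 1 eIF3a list lie between them.

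The peaks were also rich in G and C. Their mean GC content was 63.8% and 63.2% in METTL16 replicates 1 and 2 and 63.4% and 62.0% in eIF3b replicates 1 and 2. Genes in all 6 lists had 59.2%, 61.0%, 58.5% and 56.3%, and genes in exactly 1 eIF3a list had 61.2%, 62.0%, 61.2% and 58.4%. The 161 genes exceeded genes in all 6 lists by 4.37 points ± 1.53 (SD, n = 4 lists; exact sign-flip permutation p = 0.125, the smallest possible), and by 2.17 points when genes were chosen without eIF3a replicate 1. The sign was the same within the coding sequence, the 5′ UTR and the 3′ UTR of each list, in 12 of 12 comparisons. The difference was narrowest in the 3′ UTR of METTL16 replicate 2 (58.8% against 58.0%) and widest in the 3′ UTR of eIF3b replicate 2 (58.9% against 52.6%). Over all genes, mean peak GC content was lower in the eIF3a lists (53.7% and 53.1%) than in METTL16 (59.0% and 60.8%) and in eIF3b replicate 1 (58.1%), while eIF3b replicate 2 stood at 54.1%. The part of this general difference between lists in the result was not tested.

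The genes themselves were short. Their median exon length was 3934 bases, against 6963 in genes of all 6 lists and 4592 in genes of exactly 1 eIF3a list. They had a median of 7 exons against 12 in genes of all 6 lists, a coding length of 1116 bases against 1893 and a 3′ UTR of 716 bases against 1827. Genes of exactly 1 eIF3a list lay between, with medians of 9 exons, 1290 coding bases and 836 bases of 3′ UTR. Of the 161 genes, 132 had fewer exon bases than the median gene of all 6 lists. Exon GC content had a median of 56.4%, against 52.9% in genes of all 6 lists and 54.5% in genes of exactly 1 eIF3a list. Both features held together in 96 genes (59.6%), against 31.5% of the genes in all 6 lists. When peaks were compared within 4 classes of exon length of equal size, the GC difference was 2.98 points and the coding difference 14.5 points. Chromosomes 16, 17 and 19 together held 53 of the 161 genes (32.9%), against 24.8% of the genes in all 6 lists and 19.7% of genes in any list. The part of gene length in absence from the eIF3a lists was not tested.

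**Figure D4:**
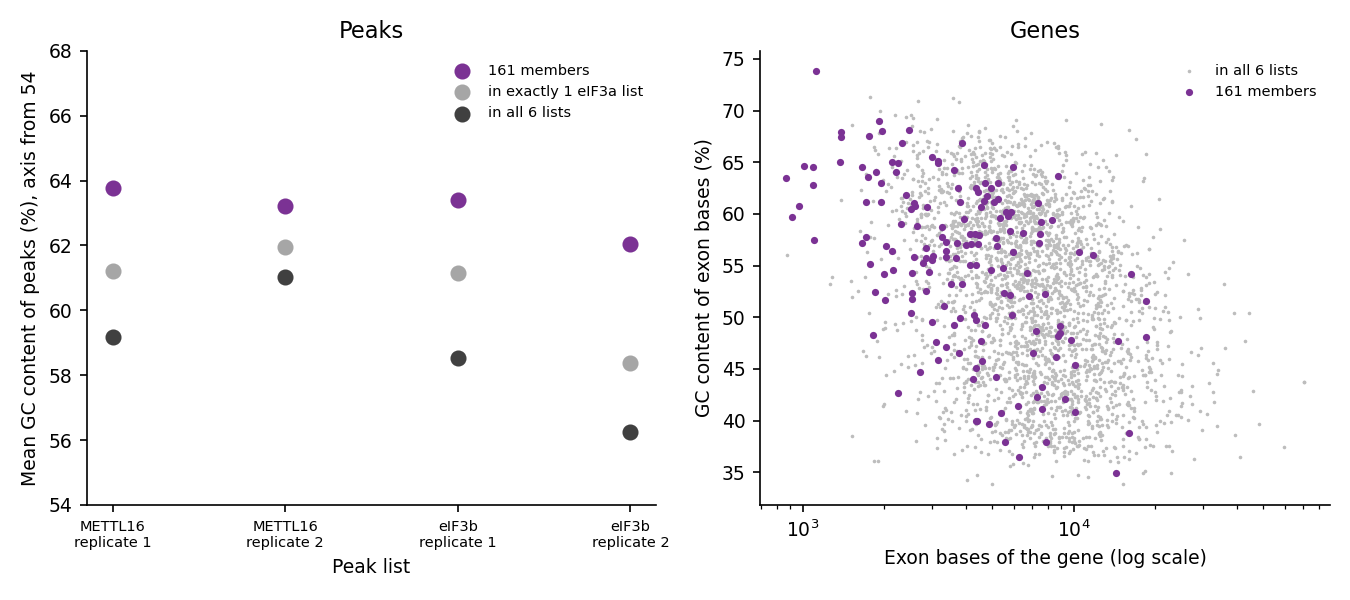
Left, mean GC content of peaks in each list (axis from 54%); right, exon bases (log axis) against exon GC content, 1 point per gene. The 161 genes have peak GC contents of 62.0% to 63.8%, above both other classes in every list, and sit mostly to the left among the shorter genes.

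Short sequence motifs were counted on the transcript strand, with overlapping matches allowed. ACAGAGA, the core of the sequence METTL16 methylates, occurred 2, 3, 2 and 2 times in the peaks of the 161 genes, which is 0.0487, 0.0475, 0.0320 and 0.0626 per 1000 bases. Genes in all 6 lists had 0.143, 0.140, 0.147 and 0.166. These occurrences are few and come from lists of the same genes, and the difference was not tested. Neither was the part of the higher GC content of the 161 genes' peaks in it. The m6A consensus (A, G or T, then A or G, then A, then C, then A, C or T) was about as frequent in both, at 15.7, 16.6, 15.9 and 16.4 per 1000 bases against 16.8, 16.3, 17.1 and 18.2. GGCGGC occurred 1.53, 1.39, 1.59 and 1.44 times per 1000 bases against 0.984, 1.14, 0.947 and 0.709. GCCGCC, its reverse complement, occurred 1.92, 2.00, 1.76 and 1.66 times against 1.11, 1.34, 1.00 and 0.796. Both GC-rich words were denser in the 161 genes in every list, and their GC content was higher in every list as well. ATTTA, an AU-rich element, was rare at 0.0973, 0.174, 0.0641 and 0.219 per 1000 bases, against 0.182, 0.136, 0.214 and 0.409, and higher than in genes of all 6 lists only in METTL16 replicate 2. Among all peaks of the same lists ACAGAGA was held by 3.31%, 3.27%, 4.07% and 4.49%, and among the peaks of the 161 genes by 0.885%, 1.17%, 0.719% and 0.966%. Median peak width was 180, 180, 210 and 181 bases over all genes, against 163, 181, 207 and 121 in the 161 genes. The part of width in these shares was not tested.

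METTL16 and eIF3b peaks often met on the same bases. In the 161 genes, 62.3% ± 13.2 of METTL16 peaks overlapped an eIF3b peak by at least 1 base (SD over 4 pairs of lists, range 47.9% to 77.9%). The METTL16 replicates overlapped each other for 64.5% of peaks and the eIF3b replicates for 63.5%. In genes of all 6 lists, 80.8% ± 7.10 of METTL16 peaks met an eIF3b peak, more than the 64.8% between METTL16 replicates and the 74.5% between eIF3b replicates. The eIF3b lists also held more peaks per gene in those genes. In the other direction, 62.6% ± 1.70 of eIF3b peaks in the 161 genes met a METTL16 peak, against 54.8% ± 5.24. At least 1 base lay under a peak in all 4 lists in 81 of 161 genes (50.3%), with a median of 119 bases in those. This share was not computed for other genes, so it cannot be called high or low.

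By gene family, members were spread thinly, at 1.49% of all listed genes. Translation initiation factors held 2 of 53 (EIF1 and EIF3D), mitochondrial ribosomal proteins 2 of 51, respiratory chain genes 2 of 60 and proteasome genes 2 of 38. Ubiquitin enzymes held 4 of 222 (TRIM47, UBE2M, RNF4 and RNF145), zinc finger genes 2 of 406 (ZNF830 and ZNF48), small GTPases 1 of 94 (RAB18) and solute carriers 1 of 206 (SLC31A1). NOTCH pathway genes held 1 of 11 (HES4), semaphorins and plexins 1 of 22 (SEMA7A), histones 1 of 35, heat shock and DNAJ proteins 1 of 59 (DNAJC30) and mRNA decay and m6A factors 1 of 76 (ALKBH4, a demethylase). No member was found among 53 ribosomal protein genes, 36 liver secreted protein genes or 9 liver stem and progenitor markers. The same held for 74 GTPase regulators, 73 DUSP and PPP phosphatases, 45 homeobox factors, 44 forkhead, SOX, KLF and GATA factors, 36 ion channels and 34 MAP kinases. None was found either among 17 growth factors, 16 claudins and cadherins, 8 ephrins and their receptors, 8 keratins or 6 WNT and frizzled genes. At the background share, fewer than 1 member would be counted in most of these families, so a 0 says little of any one of them.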

How the data were processed

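RNA immunoprecipitation libraries of METTL16, eIF3a and eIF3b were analysed from 6 deposited peak lists, 1 per library. Reads were aligned by the authors with STAR (genome build GRCh38), and peaks were called for each RIP against input with exomePeak at default settings, so replicates were not pooled (versions are not given in the sources used here). The deposited columns used were the fold enrichment of RIP over input, a ratio, the p-value, and the caller's log10 p score. The lists hold no read counts, so sequencing depth is unknown and no counting error could be given. The study names the replicates biological, and where cultures were shared the spread may be technical.

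Genes were grouped by the name column. Peak intervals were placed on GENCODE release 44 with Python 3.11.15, pandas 2.3.3, scipy 1.17.1 and pysam 0.24.0. Of 10830 names, 10325 matched a current symbol, 443 an older one through the RefSeq gene table and 62 neither. The strongest peak of a gene in a list was the one with the smallest p-value. Peak GC content and region were compared within each list and tested by flipping the sign of the difference over 4 lists, or by exact permutation of 2 against 2 lists. The scripts were tested on simulated data.

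The members, the gene lists and the motifs were chosen with earlier results of these data known. Named genes were the 15 members with the best worst rank by p-value over the 4 lists, 5 on either side of the rule, up to 4 of each gene family and 6 for sequence. The role groups, and genes named only in them or for tied peaks, were chosen after the values were seen. Alternatives were peaks of at least 4-fold, the 5000 best peaks per list, each library left out, updated symbols, overlap by position, 1 peak per gene, weighting by bases, another reference class, 4 classes of exon length, 50% overlap and same-number replicate pairs. Classes of rank by p-value (4 of equal size) were added after the data were seen. The inputs were not analysed here, and a few genes and 1 sequence that these rules pick are not reported here.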

Additional observations from a re-analysis of the deposited data

How the results depend on the processing

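For 7 results, 96 values under other settings were computed, of which 90 were classed as the same, 5 as moved and 1 as reversed. A difference was classed as the same if its sign held, whatever its size. An overlap share had to stay within 1 SD of the main value. The limit for gene counts was wide, and 233 against 161 was still classed as the same. The setting by position removed no gene and repeated the main values, so the 90 overstate how stable the results were. The number of genes was the result most open to the lists used. It was 16 when METTL16 and eIF3b peaks of at least 4-fold were required and 91 with the 5000 peaks of smallest p-value per list. With 1 library left out, it ran from 186 (without eIF3b replicate 1) to 1170 (without eIF3a replicate 1), and it was 329 without eIF3b replicate 2, since fewer lists are then required or barred. With 1 library left out, the GC difference from genes in all 6 lists ran from 2.17 points (without eIF3a replicate 1) to 4.90 points. The coding difference then ran from 5.92 (without eIF3a replicate 2) to 13.7, the 3′ UTR difference from -17.6 to -11.1 and the 5′ UTR difference from 3.24 to 5.21. The GC difference was larger, 5.56 points, with peaks of at least 4-fold and 5.12 points with 1 peak per gene. Overlap of METTL16 by eIF3b peaks ran from 51.7% to 72.4% with 1 library left out. It was 49.4% with peaks of at least 4-fold and 46.6% when 50% of a peak had to be covered. The METTL16 minus eIF3b coding share ran from 2.74 (without eIF3b replicate 2) to 12.3 points (without METTL16 replicate 1), and was -5.48 points with peaks of at least 4-fold (exact permutation p = 0.667); the cause was not tested. Against genes in exactly 1 eIF3a list, the differences were 2.43 points for GC, 1.99 for coding, -3.25 for 3′ UTR and 1.26 for 5′ UTR. The coding difference was 17.2 points with peaks of at least 4-fold, 5.94 with the 5000 best peaks and 6.60 weighted by bases. The 3′ UTR difference was -27.3 points with peaks of at least 4-fold, and the 5′ UTR difference was 10.1 there and 10.7 with the 5000 best peaks. Within 4 classes of rank by p-value, chosen after seeing the data, the GC difference was 3.97 points.

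With same-numbered replicates as a block, the coding share of METTL16 minus eIF3b was 7.50 points (exact sign-flip permutation p = 0.5, n = 2 pairs) and the overlap 62.9%. The numbers name replicates and are not stated to pair samples of different proteins. With 2 libraries per protein and 4 lists, no test could reach 0.05, and the peak lists alone cannot tell weak enrichment from low depth.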
